A study of Homo sapiens with 6 samples.

Results

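Transcripts of 52 lysosome and autophagy genes, called the members here, were followed in 6 RNA-seq libraries of SKOV3, a human line derived from ovarian carcinoma. The members were chosen by name and role from the 20030 gene symbols measured, with earlier results of these data known. The control cells, 3 libraries, were exposed for 24 h to vehicle alone, which was 5% trehalose. The treated cells, 3 libraries, were exposed for 24 h to recombinant human CCL20 (rhCCL20), a chemokine, dissolved in the same 5% trehalose; its dose is not given in the sources used here. Trehalose was thus shared by all 6 libraries, and a trehalose-free library was not analysed here, so the basal levels below are those of cells in trehalose and cannot be split into a part with and a part without it. Whether the replicates were separate cultures is not given in the labels; the spread behind each p-value is that between these samples and may be technical. Values are FPKM, mapped fragments scaled to transcript length and library size, which allows levels of different genes to be compared per length.

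The lysosome is the acidic compartment in which proteins, glycans and lipids are broken down by hydrolases, and a proton pump, the V-ATPase, keeps it acidic. In autophagy a double membrane grows around cytoplasm, is decorated with small ubiquitin-like proteins of the ATG8 family, and fuses with lysosomes. Many of these genes are targets of the MiT/TFE transcription factors, which bind an E-box element in promoters and are held in the cytoplasm by the kinase mTORC1. Trehalose, a disaccharide of glucose, is a reported inducer of autophagy, and trehalase cleaves it into glucose.

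Across the libraries the summed FPKM lay between 301805 and 310080, and depth in fragments is unknown. The most common ratio of low values between libraries, held by at most 13.2% of low genes, gave depths relative to vehicle replicate 1 of 0.945 and 0.984 in the other vehicle libraries and of 1.01, 1.06 and 1.09 in the rhCCL20 libraries. Keratins were abundant, with KRT8 at 659 and KRT18 at 605.5 FPKM on average in vehicle. Of 9 markers listed for the ovarian line, 4 stayed below 1 FPKM in every library (PAX8, WT1, MUC16 and EPCAM). The remaining markers averaged 341 (VIM), 27.3 (MSLN) and 7.75 FPKM (ERBB2, percentile 46.9 of the tested genes) in vehicle. The cells are therefore called by their label only. The library of rhCCL20 replicate 3 stood apart on the leading principal component (38.8% of variance), scoring 11.7 there, while the other 5 libraries ran from -3.96 to -0.74. Fold changes without it are given for the members that stood out in it.

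Most of the chosen members were expressed above the middle of the tested genes, and none passed the test of rhCCL20 against vehicle. Of the 52 genes, 49 reached 1 FPKM in at least 3 libraries and were tested, while CTSH and CTSK stayed below 1 FPKM in all 6 libraries and trehalase (TREH) was listed at 0 in all 6. The vehicle mean of 39 of the 49 lay above the median of the 10263 tested genes, and 11 lay in the top decile. In limma with Benjamini-Hochberg adjustment over all tested genes, 0 of the 49 rose and 0 fell, where 0% of all tested genes rose and 0.00974% fell. At an unadjusted limma p under 0.05 there were 2 of 49 (4.08%), against 4.73% of all tested genes. Both were higher with rhCCL20 (GABARAP and CTSA; 2.57% of all tested genes were) and 0 were lower (2.15% of all tested genes were).

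All 49 had a 95% interval of the fold change of FPKM + 1 within 1.5-fold in either direction, a limit chosen after the values were seen, which held for 99.6% of all tested genes. The interval bound farthest from no change was 1.197-fold, that of MITF; over the alternative settings it reached 1.305-fold, that of IDUA with a pseudocount of 0.1. The largest estimate was 1.09-fold, also of MITF. The median log2 fold change was 0.02 over the members and 0.01 over all tested genes, with 31 members above 0 and 18 below; of all tested genes 57.8% were above 0. Groups did not overlap for 4 of 49 tested members (8.16%), against 11.0% of all tested genes. Of these, 3 were higher with rhCCL20 (GABARAP, CTSA and LAMP2; 6.88% of all tested genes were) and 1 was lower (OPTN; 4.13% of all tested genes were). An exact test of 3 libraries against 3 for a single gene cannot give a p below 0.1.

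**Figure D1:**
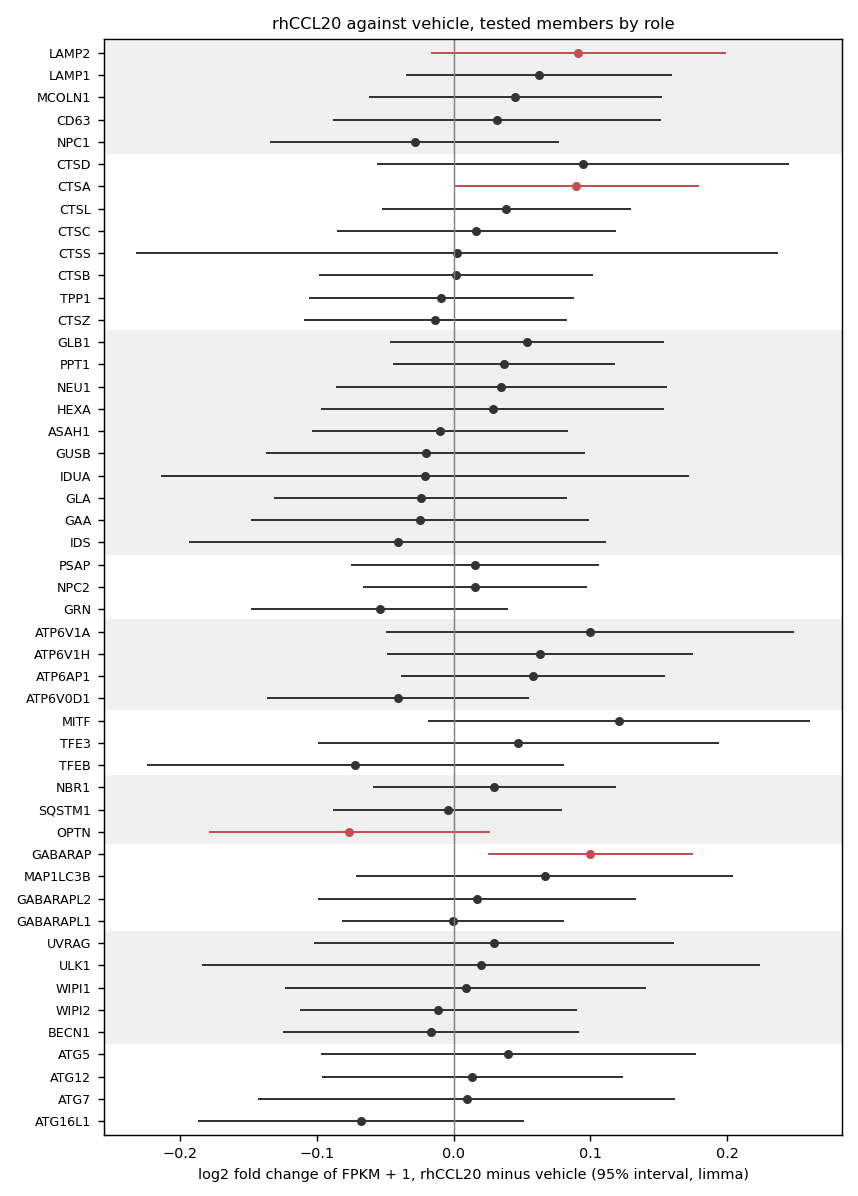
log2 fold change of FPKM + 1 (rhCCL20 minus vehicle) with its 95% interval from limma for the 49 tested genes, shaded by role. Red marks the 4 genes whose groups did not overlap; the bound farthest from 0 is that of MITF at 0.26, and 0 genes passed the adjusted threshold of 0.05.

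Membrane proteins of the lysosome were led by CD63 and LAMP1. Values are given in the order of replicates 1, 2 and 3. CD63, a tetraspanin of late endosomes, lysosomes and exosomes, measured 126, 126 and 116 FPKM in vehicle and 125, 134 and 117 FPKM with rhCCL20. LAMP1, the heavily glycosylated protein that lines the lysosomal membrane, was at 75.6, 79.3 and 79.3 FPKM in vehicle and at 79.2, 79.4 and 86.2 FPKM with rhCCL20. Its groups overlapped, with rhCCL20 replicate 3 the highest. LAMP2, which serves chaperone-mediated autophagy and lysosome fusion, was lower, at 16.757, 17.313 and 16.770 FPKM in vehicle and 17.795, 17.315 and 19.294 FPKM with rhCCL20. The LAMP2 groups did not overlap, but vehicle replicate 2 and rhCCL20 replicate 2 were almost equal. Its log2 fold change of FPKM + 1 was 0.09 (SE 0.048, limma adjusted p = 0.937), and 0.05 without rhCCL20 replicate 3. The calcium channel MCOLN1 ranged from 11.98 to 13.3 FPKM over the 6 libraries and the cholesterol exporter NPC1 from 14.3 to 15.7 FPKM.

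Lysosomal proteases covered a wide span of levels. CTSZ, a carboxypeptidase, was at 89.4, 94.5 and 91.0 FPKM in vehicle and 89.2, 87.6 and 95.6 FPKM with rhCCL20. CTSD, an aspartic protease, was at 85.1, 84.9 and 84.8 FPKM in vehicle and 83.6, 86.8 and 103 FPKM with rhCCL20. CTSD was steady in 5 libraries and high in 1, rhCCL20 replicate 3. Its log2 fold change of FPKM + 1 was 0.09 (limma adjusted p = 0.937) with that library and 0.004 without it. Together CTSZ and CTSD supplied 28.7% and 26.6% of the summed FPKM of the 10 protease genes in vehicle. TPP1, the tripeptidyl peptidase lost in a neuronal ceroid lipofuscinosis, ranged from 36.3 to 39.2 FPKM, CTSL from 33.0 to 35.9, CTSB from 22.0 to 23.9 and CTSC from 18.1 to 19.7 FPKM over the 6 libraries.

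CTSA is the protective protein that stabilises beta-galactosidase and neuraminidase in a complex and is itself a carboxypeptidase. Its transcript was at 26.3, 26.5 and 25.2 FPKM in vehicle and at 27.9, 26.9 and 28.3 FPKM with rhCCL20, so all treated libraries lay above all vehicle libraries. The means were 26.0 ± 0.71 and 27.7 ± 0.70 FPKM (SD, n = 3 each). On the log2 scale of FPKM + 1 the difference was 0.09 (SE 0.040, 95% interval 0.001 to 0.18, limma unadjusted p = 0.0483, adjusted p = 0.937). Its partners NEU1 and GLB1 did not separate by group. NEU1, the neuraminidase, ranged from 19.3 to 22.4 FPKM with its lowest and highest values both in vehicle. GLB1, the beta-galactosidase, was at 15.1, 15.5 and 15.3 FPKM in vehicle and 15.5, 16.7 and 15.7 FPKM with rhCCL20. GENCODE places CTSA on the plus strand of chromosome 20 at 45890144 to 45898820 (GRCh38).

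Cathepsins that are abundant in other cell types were scarce. CTSS, typical of antigen-presenting cells, was at 2.002, 1.262 and 1.302 FPKM in vehicle and 1.38, 1.58 and 1.56 FPKM with rhCCL20. CTSK, the collagenase of osteoclasts, was at 0.298, 0.313 and 0.122 FPKM in vehicle and 0.314, 0.281 and 0.238 FPKM with rhCCL20. CTSH, an aminopeptidase, was at 0.716, 0.735 and 0.728 FPKM in vehicle and 0.654, 0.604 and 0.614 FPKM with rhCCL20. The CTSH groups did not overlap, with vehicle higher, but the gene was below the filter. With no filter its log2 fold change was -0.09 (limma unadjusted p = 0.0166, adjusted p = 0.910). In that setting 5 of 51 members had groups that did not overlap, beside 9.92% of all genes. An unadjusted limma p under 0.05 was held there by 3 members and by 861 of all 16355 genes. CTSS was highest in vehicle replicate 1, a library in which the leukocyte transcripts LYZ and S100A9 stood at 5.24 and 3.41 FPKM against at most 0.691 and 0.220 FPKM in the other vehicle libraries. Of 12 leukocyte and macrophage markers, 3 were tested (LYZ, S100A9 and CD68), 8 stayed below 1 FPKM in all libraries and none was at 0 in all 6. Their summed level lay between 13.4 and 23.7 FPKM in vehicle and between 18.7 and 21.5 FPKM with rhCCL20. In the rhCCL20 libraries LYZ lay between 2.92 and 4.27 FPKM and S100A9 between 2.15 and 2.81 FPKM, all above vehicle replicates 2 and 3, while CTSS lay between 1.38 and 1.58 FPKM. CD68, a macrophage lysosomal protein that is also found in other cells, was lowest in vehicle replicate 1 at 10.6 FPKM and reached 11.5 FPKM elsewhere. Their part in the CTSS values was not tested.

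The remaining hydrolases were led by PPT1 and GLA. PPT1, which removes palmitate from proteins, was at 91.9, 94.0 and 88.5 FPKM in vehicle and 93.0, 93.6 and 94.952 FPKM with rhCCL20. GLA, the alpha-galactosidase lost in Fabry disease, was at 51.3, 51.5 and 49.5 FPKM in vehicle and 52.6, 50.7 and 46.6 FPKM with rhCCL20. Neither separated by group, and rhCCL20 replicate 3 held the highest PPT1 value and the lowest GLA value. Below them came HEXA, a subunit of hexosaminidase, from 25.9 to 29.8 FPKM, the glycogen-degrading GAA from 13.8 to 15.5, the ceramidase ASAH1 from 11.97 to 12.5 and the glucuronidase GUSB from 9.82 to 10.7 FPKM over the 6 libraries. The enzymes of heparan and dermatan sulfate breakdown were the lowest, with IDS from 1.56 to 1.95 FPKM and IDUA from 0.770 to 1.204 FPKM. Of the 10 genes of this role 0 passed, 4 had a positive and 6 a negative log2 fold change, and 0 had groups that did not overlap.

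PSAP was the most abundant of the 52 genes. It encodes prosaposin, the precursor of the saposins that present sphingolipids to hydrolases, and was at 351, 359 and 354 FPKM in vehicle and 354, 346 and 376 FPKM with rhCCL20. Its lowest value in any library was above the highest value of any other member in any library, and its vehicle mean stood at percentile 98.8 of the tested genes. NPC2, which hands cholesterol to NPC1, was at 59.1, 58.9 and 57.3 FPKM in vehicle and 57.3, 60.4 and 59.5 FPKM with rhCCL20. GRN, which encodes progranulin, was at 62.4, 58.6 and 56.5 FPKM in vehicle and 57.1, 56.6 and 57.0 FPKM with rhCCL20. The ranges of NPC2 and GRN overlapped, so their levels did not differ beyond their spread, and neither gene separated by group.

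Among the proton pump genes the accessory subunit ATP6AP1 was at 48.5, 44.9 and 47.0 FPKM in vehicle and 48.2, 47.4 and 50.7 FPKM with rhCCL20. ATP6V1A, the catalytic subunit of the cytosolic sector, was at 33.9, 33.5 and 32.6 FPKM in vehicle and 33.7, 33.6 and 40.5 FPKM with rhCCL20. As with CTSD, 5 libraries were alike and rhCCL20 replicate 3 was higher. The ATP6V1A log2 fold change of FPKM + 1 was 0.10 (limma adjusted p = 0.937) and 0.01 without that library. ATP6V0D1 ranged from 19.7 to 21.7 FPKM and ATP6V1H from 11.6 to 13.1 FPKM over the 6 libraries.

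**Figure D2:**
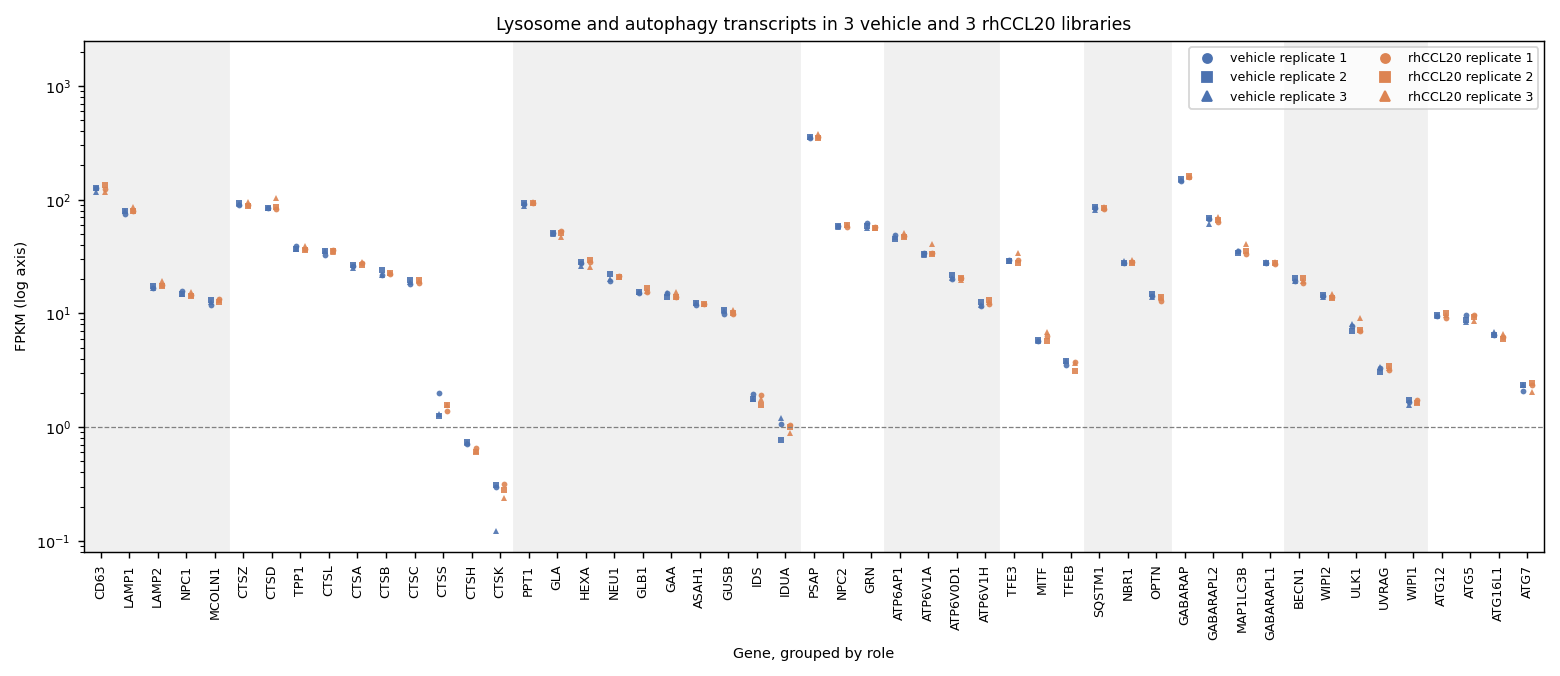
FPKM (log axis) of the 51 genes above 0 in each library, grouped by role with shading and ordered by mean within a role; blue is vehicle, orange rhCCL20, and the symbol gives the replicate. The points of a gene lie close together, PSAP is the highest, and the dashed line at 1 FPKM leaves CTSH and CTSK below it in all libraries.

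Of the 3 MiT/TFE factors among the members, TFE3 was by far the most abundant transcript and TFEB the least. TFEC, of the same family but not a member, averaged 0.031 FPKM over the 6 libraries and was not tested. TFE3 was at 29.79, 29.14 and 29.003 FPKM in vehicle and 29.5, 27.8 and 34.1 FPKM with rhCCL20. MITF was at 5.76, 5.79 and 5.71 FPKM in vehicle and 6.40, 5.78 and 6.89 FPKM with rhCCL20. TFEB, the factor best known for driving lysosome genes, was at 3.54, 3.83 and 3.78 FPKM in vehicle and 3.73, 3.11 and 3.64 FPKM with rhCCL20. Their ranges over the 6 libraries did not overlap, and TFE3 made up 75.6%, MITF 14.8% and TFEB 9.58% of their summed FPKM in vehicle. In each of the 3 the groups overlapped. MITF had the largest log2 fold change of all members, at 0.12 (95% interval -0.02 to 0.26, limma adjusted p = 0.937), and 0.07 without rhCCL20 replicate 3. TFE3 had 0.05, which turned to -0.03 without rhCCL20 replicate 3. TFEB had -0.07, which ran from -0.11 to -0.008 on leaving out single libraries, and its lowest value was in rhCCL20 replicate 2.

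The E-box that these factors bind was looked for in RefSeq promoter windows (build GRCh38.p14, 250 bases before to 50 bases after a transcription start), which covered 42 of the 52 genes. Each of the motifs searched reads the same on both strands and the shorter ones lie within the longer. The core CACGTG occurred in windows of 8 of 42 members (19.0%), against 13.4% of 8230 tested genes with a window. Counted by window, it occurred in 8 of 61 member windows (13.1%), against 7.26% of all 35116 windows. The 8-base TCACGTGA occurred in 5 of 42 (11.9%), against 2.56% of the tested genes, and in 8.20% of member windows against 0.980% of all windows. The full palindrome, the 8-base form with G before and C after it, occurred in 2 of 42 (4.76%), against 1.01% of the tested genes, and in 3.28% of member windows against 0.353% of all windows. Members with several windows had more chances to match, and a match is a description of letters, not of binding. The members were chosen by role, and many such genes are targets of these factors. Their higher shares are therefore no independent result. The bases just before the start are shown for the 5 genes with the 8-base form and for CTSD, an abundant protease gene with the core alone; capitals mark each CACGTG.
CTSA, chr20:45891235-45891334, plus strand: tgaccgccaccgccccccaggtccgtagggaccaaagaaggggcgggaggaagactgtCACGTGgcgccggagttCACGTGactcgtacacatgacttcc
MCOLN1, chr19:7522524-7522623, plus strand: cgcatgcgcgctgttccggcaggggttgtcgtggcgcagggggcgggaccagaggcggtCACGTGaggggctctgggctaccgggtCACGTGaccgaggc
GAA, chr17:80101481-80101580, plus strand: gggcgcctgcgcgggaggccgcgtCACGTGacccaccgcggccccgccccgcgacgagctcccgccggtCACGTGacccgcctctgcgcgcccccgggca
ATP6V0D1, chr16:67481158-67481257, minus strand: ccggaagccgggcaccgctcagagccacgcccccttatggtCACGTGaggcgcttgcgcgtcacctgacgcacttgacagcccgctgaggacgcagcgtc
CTSD, chr11:1763928-1764027, minus strand: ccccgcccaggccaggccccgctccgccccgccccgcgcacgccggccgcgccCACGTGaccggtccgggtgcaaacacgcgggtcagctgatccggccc
LAMP1, chr13:113297039-113297238, plus strand: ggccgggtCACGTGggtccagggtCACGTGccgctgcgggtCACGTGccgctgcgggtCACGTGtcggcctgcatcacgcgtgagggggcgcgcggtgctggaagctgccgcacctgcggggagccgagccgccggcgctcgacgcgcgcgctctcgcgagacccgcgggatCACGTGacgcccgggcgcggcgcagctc

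LAMP1 carried the most cores, 6 in its window, of which 5 fall in the printed stretch and the sixth begins 1 base before the start. GAA carried 2 copies of the full palindrome and MCOLN1 carried 1 beside a second 8-base copy. The other matches were in CD63 and NEU1, each with a single core, 180 and 126 bases before the start. The 8 genes with a core did not share a direction with rhCCL20. Their log2 fold changes of FPKM + 1 were 0.09 for CTSD, 0.09 for CTSA, 0.06 for LAMP1, 0.05 for MCOLN1, 0.03 for NEU1, 0.03 for CD63, -0.02 for GAA and -0.04 for ATP6V0D1, and 0 of these passed.

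**Figure D3:**
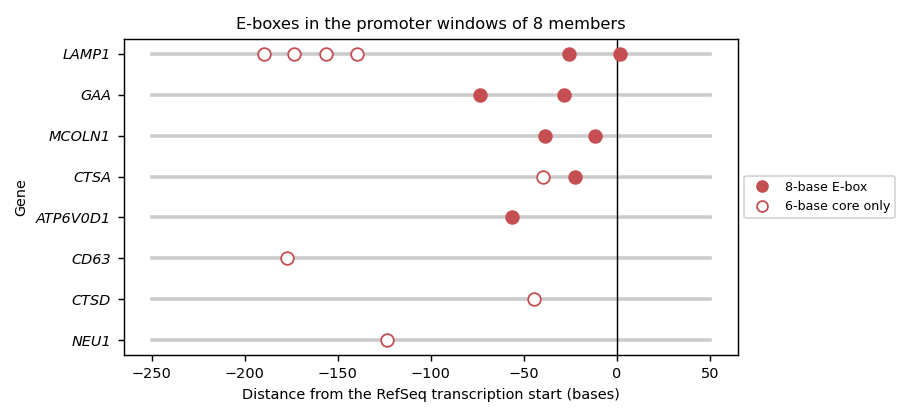
Distance in bases from the RefSeq transcription start (vertical line) of the centre of each E-box core in the promoter windows (grey lines) of 8 members; filled circles are cores within the 8-base form and open circles the 6-base core only. LAMP1 has 6 cores, GAA, MCOLN1 and CTSA have 2 each, and 1 is seen in each of the others.

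The cargo receptors of autophagy were led by SQSTM1 (p62), which links ubiquitinated cargo to ATG8 proteins. SQSTM1 was at 84.2, 87.2 and 81.8 FPKM in vehicle and 82.6, 84.1 and 85.6 FPKM with rhCCL20. Its log2 fold change of FPKM + 1 was -0.004 (95% interval -0.09 to 0.08). NBR1, a related receptor, was at 27.5, 27.6 and 28.7 FPKM in vehicle and 28.3, 27.9 and 29.5 FPKM with rhCCL20. OPTN, optineurin, a receptor for damaged mitochondria and bacteria, was at 14.2, 14.7 and 13.9 FPKM in vehicle and 12.9, 13.9 and 13.6 FPKM with rhCCL20. All treated OPTN values lay below all vehicle values, though the lowest vehicle library (13.928 FPKM) and the highest treated library (13.893 FPKM) nearly met. Its log2 fold change was -0.08 (SE 0.045, limma adjusted p = 0.937).

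GABARAP dominated the ATG8 family and had the smallest p of all 49 tested members. GABARAP serves late steps of autophagosome formation and binds many receptors. It was at 147, 152 and 149 FPKM in vehicle and 159, 162 and 159 FPKM with rhCCL20, so the groups did not overlap. The means were 149 ± 2.6 and 160 ± 1.5 FPKM (SD, n = 3 each). On the log2 scale of FPKM + 1 the difference was 0.10 (SE 0.033, 95% interval 0.03 to 0.17, limma unadjusted p = 0.0134, adjusted p = 0.937), and without rhCCL20 replicate 3 it was likewise 0.10. GENCODE places it on the minus strand of chromosome 17 at 7240014 to 7242770 (GRCh38).

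The other ATG8 members were less abundant and did not separate by group. GABARAPL2 was at 68.1, 68.5 and 61.4 FPKM in vehicle and 63.8, 66.6 and 69.9 FPKM with rhCCL20. MAP1LC3B, the LC3 form used as the usual autophagosome marker, was at 35.1, 33.9 and 35.1 FPKM in vehicle and 33.6, 35.4 and 40.5 FPKM with rhCCL20. Its log2 fold change of 0.07 turned to -0.01 without rhCCL20 replicate 3. GABARAPL1 was the steadiest, at 28.01, 27.54 and 28.12 FPKM in vehicle and 27.5, 27.8 and 28.3 FPKM with rhCCL20. The ranges of the 4 genes over the 6 libraries did not overlap in the order GABARAP, GABARAPL2, MAP1LC3B and GABARAPL1. In vehicle GABARAP supplied 53.7% of their summed FPKM, GABARAPL2 23.8%, MAP1LC3B 12.5% and GABARAPL1 10.04%. MAP1LC3B2, a near-identical copy of MAP1LC3B with a mean of 6.20 FPKM in vehicle, can share fragments with it, so the split between these 2 is uncertain.

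**Figure D4:**
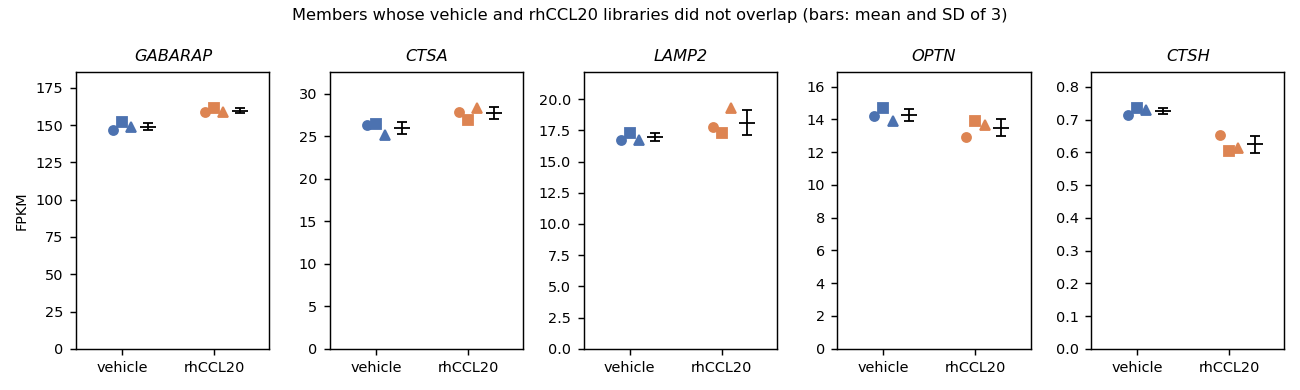
FPKM per library (axis from 0) of the 5 members whose vehicle (blue) and rhCCL20 (orange) libraries did not overlap; the symbol gives the replicate and the black bar the mean with SD of 3. GABARAP, CTSA and LAMP2 are higher and OPTN and CTSH lower with rhCCL20. CTSH is below 1 FPKM throughout and was not tested in the main fit. With no filter, groups did not overlap for 5 of 51 members and for 9.92% of all genes.

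Of the genes that start and extend the autophagic membrane, BECN1 and WIPI2 lay above the median of tested genes in vehicle (8.59 FPKM) and ULK1, UVRAG and WIPI1 below it. BECN1, the scaffold of the lipid kinase complex, was at 19.3, 20.3 and 19.3 FPKM in vehicle and 18.4, 20.4 and 19.4 FPKM with rhCCL20. WIPI2, which reads the lipid product and recruits ATG16L1, was at 14.3, 14.5 and 13.9 FPKM in vehicle and 14.0, 13.6 and 14.8 FPKM with rhCCL20. UVRAG, a partner of BECN1, was at 3.31, 3.07 and 3.39 FPKM in vehicle and 3.21, 3.49 and 3.34 FPKM with rhCCL20. Each of these groups overlapped. The initiating kinase ULK1 ranged from 6.96 to 9.14 FPKM, with its highest value in rhCCL20 replicate 3, and WIPI1 ranged from 1.58 to 1.75 FPKM.

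Of the conjugation genes ATG12 and ATG5 lay just above that median and ATG16L1 and ATG7 below it. ATG12, the ubiquitin-like protein joined to ATG5, was at 9.43, 9.74 and 9.43 FPKM in vehicle and 9.147, 10.02 and 9.760 FPKM with rhCCL20. ATG5 was at 9.63, 8.83 and 8.37 FPKM in vehicle and 9.62, 9.36 and 8.67 FPKM with rhCCL20. The ranges of these partners overlapped, so their levels did not differ beyond their spread. ATG16L1, which directs the conjugate to membranes, was at 6.51, 6.44 and 6.82 FPKM in vehicle and 6.157, 6.004 and 6.570 FPKM with rhCCL20. Its log2 fold change was -0.07 (limma adjusted p = 0.937). The E1-like enzyme ATG7 was the lowest, from 2.06 to 2.45 FPKM over the 6 libraries.

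Trehalase, encoded by TREH on chromosome 11 from 118657316 to 118679690, was listed at 0 in each of the 6 libraries, as were 3675 of the 20030 symbols. An exact 0 in an FPKM file can also be a failed estimate, and since depth in fragments is unknown no upper limit can be given.

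Of 119 other tested genes of the pathway 0 passed the threshold in limma, and 7 (5.88%, against 4.73% of all tested genes) had an unadjusted p under 0.05, 4 higher and 3 lower. Groups did not overlap for 19 of them (16.0%, against 11.0% of all tested genes and 8.16% of the members). In vehicle 58 of 119 lay above the median of tested genes, where 39 of 49 members did, among them 11 of 32 autophagy genes, 5 of 17 membrane proteins and 11 of 13 V-ATPase subunits. Of 22 further hydrolases and cofactors, 0 passed and the median log2 fold change was 0.003. The cysteine protease CTSF was at 11.2, 11.6 and 11.1 FPKM in vehicle and 8.42, 10.01 and 10.4 FPKM with rhCCL20, a log2 fold change of -0.22 (95% interval -0.37 to -0.06, limma adjusted p = 0.937). The fucosidase FUCA1 had -0.15 with overlapping groups. Of 17 further membrane proteins 0 passed, with a median of 0.01. LAPTM4A was the highest of them at 128 FPKM in vehicle, SCARB2, the receptor that carries glucocerebrosidase to lysosomes, had 0.10, and MFSD8 had -0.14.

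Of 13 further V-ATPase subunits 0 passed and 10 had a log2 fold change above 0, with a median of 0.03. ATP6V0E1, a membrane subunit, was at 204, 208 and 198 FPKM in vehicle and 211, 221 and 213 FPKM with rhCCL20, without overlap and with a log2 fold change of 0.08 (limma adjusted p = 0.937). ATP6V1C1 had 0.10. Of 32 further autophagy genes 0 passed, with a median of 0.002. ATG101, of the ULK1 complex, led them at 47.3 FPKM in vehicle, the receptor TAX1BP1 had 0.06 and PIK3R4, of the lipid kinase complex, had 0.08. Of 23 regulators of mTORC1 and TFEB 0 passed, with a median of 0.04. RHEB, the GTPase that activates mTORC1, was at 41.3, 39.6 and 37.3 FPKM in vehicle and 44.0, 44.0 and 41.8 FPKM with rhCCL20, without overlap, a log2 fold change of 0.13 (95% interval 0.03 to 0.23, limma adjusted p = 0.937). LAMTOR2, of the Ragulator scaffold, had -0.09 and LAMTOR5, the most abundant, -0.04. Of 12 genes that tag and sort hydrolases by mannose 6-phosphate 0 passed, with a median of 0.002. The receptor M6PR averaged 49.6 FPKM in vehicle and 49.3 FPKM in treated libraries, and the sorting adaptors GGA1 and GGA2 had -0.10 and -0.07. CTSF, SCARB2, MFSD8, ATP6V1C1, TAX1BP1, LAMTOR2, GGA1 and GGA2 were also among the genes without overlap counted above.

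The spread over libraries was small for most members, and most of the larger deviations were in rhCCL20 replicate 3. The median residual SD of log2(FPKM + 1) within groups was 0.053 over the 49 members and 0.066 over all tested genes. In rhCCL20 replicate 3, 6 members lay more than 0.2 on the log2 scale above their median in the other 5 libraries (12.2%, against 9.68% of all tested genes), and 0 lay as far below. These were ULK1 at 0.31, CTSD at 0.28, ATP6V1A at 0.26, TFE3 at 0.22, MITF at 0.22 and MAP1LC3B at 0.20. That library was the highest of the 6 for 19 of 49 members (38.8%), close to the 37.1% of all tested genes. Leaving it out turned the sign of the log2 fold change in 9 of 49 members and moved it by over 1.5 times in a further 22, by at most 0.11 on the log2 scale. ULK1 went from 0.02 to -0.09, LAMP1 from 0.06 to 0.02, CD63 from 0.03 to 0.08, GAA from -0.02 to -0.07, ATP6V0D1 from -0.04 to -0.03, and SQSTM1 from -0.004 to -0.02. In the other 5 libraries 0 or 1 members lay that far above, the 1 being CTSS in vehicle replicate 1.

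**Figure D5:**
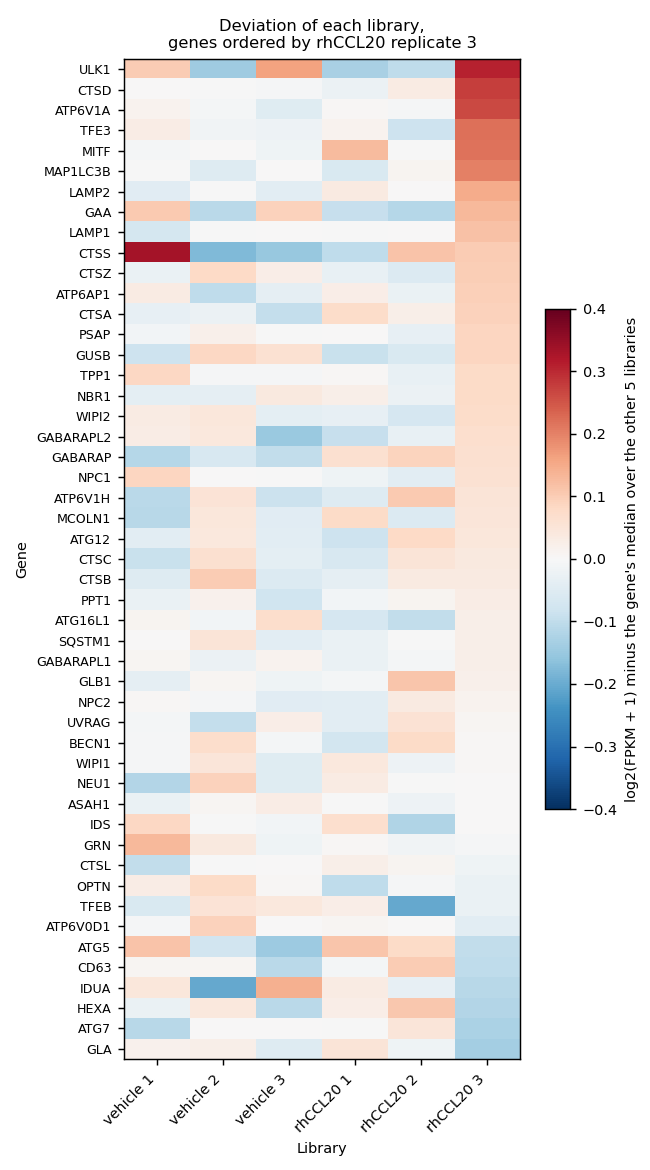
Deviation of each library (columns) from the median of the other 5 libraries, in log2(FPKM + 1), for the 49 tested genes (rows) ordered by rhCCL20 replicate 3; red is higher and blue lower. ULK1, CTSD, ATP6V1A, TFE3, MITF and MAP1LC3B stand out in rhCCL20 replicate 3 at 0.20 to 0.31, and CTSS in vehicle replicate 1.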

How the data were processed

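Total RNA of 6 samples was sequenced after Trizol extraction and an Illumina TruSeq RNA kit, per the labels' protocols. Trimmomatic, HISAT2, Cufflinks, HTSeq and the build GRCh38 appear in the submitters' processing notes, without roles or order; their versions, the strand setting and the annotation were not given in the sources used. The values deposited by the authors are FPKM for each symbol, as the file headers state. FPKM hides fragment numbers, so no counting intervals are given. GENCODE 29 places exons of 13 members over exons of a measured gene on the opposite strand, and of 2 on the same strand, so such values may share fragments. In mean FPKM, PSME3 (51.1) exceeded BECN1 (19.5), VGLL4 (7.50) exceeded ATG7 (2.27) and PHLDB1 (1.64) exceeded TREH (0), all on the opposite strand. In every other pair the member was higher, as with PPT1 (92.6) over CAP1 (66.5). MCOLN1 (12.7) shared the same strand with PNPLA6 (10.9). The part of shared fragments in these levels was not tested.

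Genes that reached 1 FPKM in 3 or more libraries were fitted with limma 3.58.1 in R 4.3.3 (eBayes with trend, group as the only term) on log2(FPKM + 1), a scale that understates changes of low genes. Adjustment by Benjamini-Hochberg ran over all 10263 genes, with a threshold of 0.05. The procedure was tested on simulated data. The members and lists were chosen with earlier results of these data known. Members described in full are, in each role, the 2 most abundant and the 1 with the smallest p. All ATG8 and MiT/TFE members, members not tested and members without overlap are also described in full. From each other list the most abundant gene and the 2 with the smallest p were chosen, and several have only a mean or a log2 fold change. A gene that this rule names is not reported here. Fold changes named beside these, and all ranges, complete the account of the members. Named after their values were seen are CTSS and NEU1. Alternatives left out single libraries, added a replicate block, or changed the pseudocount, filter, scaling or eBayes trend.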

Additional observations from a re-analysis of the deposited data

How the results depend on the processing

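No member passed the adjusted threshold in limma in any of 14 alternatives, where the smallest adjusted p of a member was 0.716. An unadjusted limma p under 0.05 was held by 0 to 4 members (4 without rhCCL20 replicate 2). In the main fit 2 members held it, beside 4.73% of all tested genes. The share of all tested genes without rhCCL20 replicate 2 is not given here, so the 4 are no result about the members. Of 676 alternative fold changes of members, 621 kept the sign, and 20 of the 49 members kept it throughout. Over all genes, 1 passed, 0 with no filter on low values (861 at an unadjusted p under 0.05) and between 1 and 3 on leaving out single libraries (3 without vehicle replicate 1). Members whose groups did not overlap numbered 4 in the main fit, where this held for 11.0% of all tested genes. They numbered 6 to 11 on leaving out single libraries, where fewer libraries make a gap easier (18.5% to 22.9% of all tested genes). With quantile normalization they numbered 7. The share of all tested genes is not given here for that setting, so the 7 are no result about the members. The replicate block left 0 members and 1 gene past the threshold. Same-numbered libraries correlated in their deviations at -0.10, 0.03 and 0.10, within the range of differently numbered libraries (-0.12 to 0.13). These values show no sign of pairing, but they cannot tell whether libraries shared a culture or a batch. Unknown depth limits the reading of CTSK, CTSH, IDUA and TREH.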
